A study of Mus musculus with 35 samples.

Results

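T cell receptor signalling genes were followed here as 9 transcripts chosen by symbol: Lat, Zap70, Lck, Themis, Skap1, Cd28, Cd27, Trat1 and Bcl11b. Lck, the kinase that starts the pathway, had no probe in the platform annotation used and was not analysed here. The other 8 made up 8 of the 18090 genes tested and had 18 of the 46089 probes of the array. All 18 probes passed the filter on dim probes, which kept a probe detected on at least 2 arrays of 1 group at a detection p under 0.05. Their RNA was read with Illumina bead arrays for mouse in mTECs, medullary epithelial cells of the thymus that transcribe antigens of peripheral tissues and present them to developing T cells. By FACS, cells with each of 6 such antigens were parted from cells without it, using antibodies against Pdpn, Gp2, Cea1 and Tspan8 and reporter mice for Gad1 and Ins2. Each comparison asked which transcripts go with the sorted antigen. The 12 groups were thus Pdpn-positive, Pdpn-negative, Gp2-positive, Gp2-negative, Gad1-positive, Gad1-negative, Cea1-positive, Cea1-negative, Ins2-positive, Ins2-negative, Tspan8-positive and Tspan8-negative mTECs of mouse, with no treatment named for any. Strain, age, reporter alleles and sort gates are not given in the sources used here. Each group had 3 arrays, except 2 Gp2-positive arrays and 2 usable Ins2-negative arrays. Arrays within a group are labelled biological replicates, and separate animals are not named, so p-values measure the spread between these samples.

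In a T cell, engagement of the antigen receptor lets the kinase Lck phosphorylate the CD3 chains, to which the kinase ZAP-70 binds. ZAP-70 then phosphorylates the membrane scaffold LAT, on which adaptors assemble to release calcium and activate Ras and the nuclear factors of T cell activation. CD28 and CD27 are receptors for costimulatory ligands on antigen-presenting cells, and mTECs are among the thymic cells that carry such ligands. THEMIS tunes the strength of receptor signals in thymocytes, SKAP1 is an adaptor that couples the receptor to integrins, TRAT1 (TRIM) is a transmembrane adaptor associated with the receptor complex, and BCL11B is a zinc finger transcription factor that commits progenitors to the T lineage.

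Between 47.1% and 60.8% of probes were detected per array, and replicates correlated at 0.971 to 0.992 (Pearson, log2 signal). The pair that correlated least was that of the Gp2-positive arrays. Of 9 markers of the labelled cell type, which include Aire, Fezf2 and Krt8, 8 were detected in every group, and Epcam was detected on no array of the Pdpn-positive, Gad1-negative, Cea1-negative and Cea1-positive groups. Gp2-negative replicate 1 stood apart from the other 2 Gp2-negative arrays. It had the highest value of its group for all 8 members and a summed signal of 5872 (background-corrected units) over 11 thymocyte markers, against 2398 and 1912. Some results of the Gp2 sort are therefore also given without it, namely the differences of Lat and Cd27, the median of the members and the counts of gene lists. Values below are log2 of the background-corrected, quantile-normalized signal of the brightest probe of each gene. Differences are positive minus negative cells, each with its standard error (SE) from limma, and a gene was called at a Benjamini-Hochberg adjusted p under 0.05 over all genes. Levels are not compared between genes, since probes differ in brightness. The number of arrays limits the precision.

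The sequences just upstream of 4 members are shown because these are the genes whose transcripts the results turn on. Lat and Cd27 had the 2 greatest differences among the members in the Gp2 sort, and Trat1 and Bcl11b moved apart from each other in other sorts. Each line gives the 250 bases before the annotated start in RefSeq (GRCm38.p6), 5′ to 3′ on the strand of the gene. The windows are chr7:126369569-126369818 for Lat, chr6:125237028-125237277 for Cd27, chr16:48772063-48772312 for Trat1 and chr12:108003415-108003664 for Bcl11b, all on the minus strand. Capitals mark matches, searched on both strands, to short motifs bound by factors of the T lineage. The ETS family was searched as AGGAAG and the RUNX family as the letters TGTGGT. The E box was searched as CANNTG, where N is any base, TCF and LEF factors as CTTTGA and GATA factors as AGATAA.
Lat: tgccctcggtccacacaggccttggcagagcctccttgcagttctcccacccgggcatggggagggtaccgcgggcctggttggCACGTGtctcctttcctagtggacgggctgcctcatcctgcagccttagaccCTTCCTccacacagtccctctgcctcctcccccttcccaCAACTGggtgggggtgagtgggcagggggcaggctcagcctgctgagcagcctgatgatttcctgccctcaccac
Cd27: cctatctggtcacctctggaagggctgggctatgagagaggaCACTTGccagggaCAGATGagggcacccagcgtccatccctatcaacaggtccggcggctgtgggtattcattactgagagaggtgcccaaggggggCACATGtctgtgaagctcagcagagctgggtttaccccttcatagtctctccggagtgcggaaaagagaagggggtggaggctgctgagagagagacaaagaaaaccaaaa
Trat1: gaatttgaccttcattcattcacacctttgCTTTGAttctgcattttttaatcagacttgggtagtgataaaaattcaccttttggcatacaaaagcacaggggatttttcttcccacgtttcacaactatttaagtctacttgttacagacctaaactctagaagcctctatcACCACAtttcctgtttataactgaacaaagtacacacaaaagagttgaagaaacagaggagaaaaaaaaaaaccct
Bcl11b: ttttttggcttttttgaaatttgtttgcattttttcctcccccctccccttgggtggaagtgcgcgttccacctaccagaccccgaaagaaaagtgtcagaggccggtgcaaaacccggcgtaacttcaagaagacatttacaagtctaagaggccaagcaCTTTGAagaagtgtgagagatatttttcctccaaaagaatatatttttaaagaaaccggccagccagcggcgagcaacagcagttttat
Over the 32851 windows of this length in the table, 29.5% held AGGAAG, 14% TGTGGT, 66.2% CANNTG, 13.8% CTTTGA and 9.99% AGATAA. Lat had 1 AGGAAG on the reverse strand and 2 E boxes, and Cd27 had 3 E boxes. Trat1 had 1 CTTTGA and 1 TGTGGT, the latter on the reverse strand, and Bcl11b had 1 CTTTGA. No motif was held by all 4 windows, and no matches overlapped in them. These windows differed in base composition, with 65.2% G and C for Lat, 56% for Cd27, 44.8% for Bcl11b and 35.2% for Trat1, against a median of 52.4% over all windows. Of the 9 members, 7 had a window (Cd28 and Skap1 did not). Counting every window of a gene, 3 of the 7 held AGGAAG, 3 TGTGGT, 5 CANNTG, 3 CTTTGA and 0 AGATAA. The 7 genes had 11 windows, so these counts per gene cannot be set against the shares per window. A match describes the letters of the window and is not a measured binding site.

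All 8 measured members were higher in Gp2-positive than in Gp2-negative cells, by 7.22-fold (Cd28) to 18.5-fold (Cd27). The arrays of the 2 groups did not overlap for any of the 8. Over all genes tested, 18.0% were called higher in this sort and 25.5% had higher, non-overlapping arrays. The median difference of the members was 3.59 on the log2 scale, and that of all genes was -0.02. Without Gp2-negative replicate 1 all 8 members were still called higher, and their median was 4.11. The transcripts of a whole fraction were measured, so that fewer cells of a type and less RNA per cell cannot be told apart.

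Among the proximal signalling genes, Lat read 11.19 and 10.65 on the Gp2-positive arrays and 8.10, 6.07 and 6.09 on the Gp2-negative arrays. The difference of 4.17 (SE 0.50) is 18.0-fold, with a 95% interval of 8.94 to 36.1 and an adjusted p of 1.54e-08 in limma. Replicate 1 was the high array of the negative group, and the difference was 4.84 without it. Zap70, the kinase that binds the phosphorylated CD3 chains, read 10.59 and 10.02 against 7.20, 6.11 and 5.93. It was 14.9-fold higher (log2 difference 3.89, SE 0.28, limma adjusted p = 2.50e-13), and the lowest positive array lay well above the highest negative array. Themis read 8.51 and 7.20 against 5.10, 4.35 and 4.28 and was 9.70-fold higher (3.28, SE 0.28). Themis was the member whose positive arrays lay furthest apart, and 1 of its 3 negative arrays was detected. Leaving out a Gp2-positive array moved its difference to 2.62 or 3.93.

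Of the adaptors, Skap1 read 9.20 and 8.94 on the Gp2-positive arrays and 6.78, 5.41 and 4.81 on the Gp2-negative arrays, a 10.6-fold difference (3.41, SE 0.38). Trat1 read 10.38 and 9.50 against 7.56, 6.34 and 5.96, a 9.96-fold difference (3.32, SE 0.32). In both, the negative group spread over more than 1 log2 unit, with replicate 1 at the top. The transcription factor gene Bcl11b read 11.97 and 11.31 against 8.82, 7.59 and 7.18, and was 13.7-fold higher (3.78, SE 0.28, limma adjusted p = 3.47e-13).

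The costimulatory receptor genes followed the same direction. Cd28 read 8.41 and 7.92 in Gp2-positive cells and 5.97, 4.81 and 5.15 in Gp2-negative cells, and was 7.22-fold higher (2.85, SE 0.33). Cd27, a receptor of the tumour necrosis factor receptor family, read 12.12 and 11.96 against 9.11, 7.66 and 6.72. Its 18.5-fold difference (4.21, SE 0.43, limma adjusted p = 6.01e-10) became 4.85 on the log2 scale without Gp2-negative replicate 1. The positive arrays of Cd27 were close together, and most of its spread lay in the negative group.

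**Figure D1:**
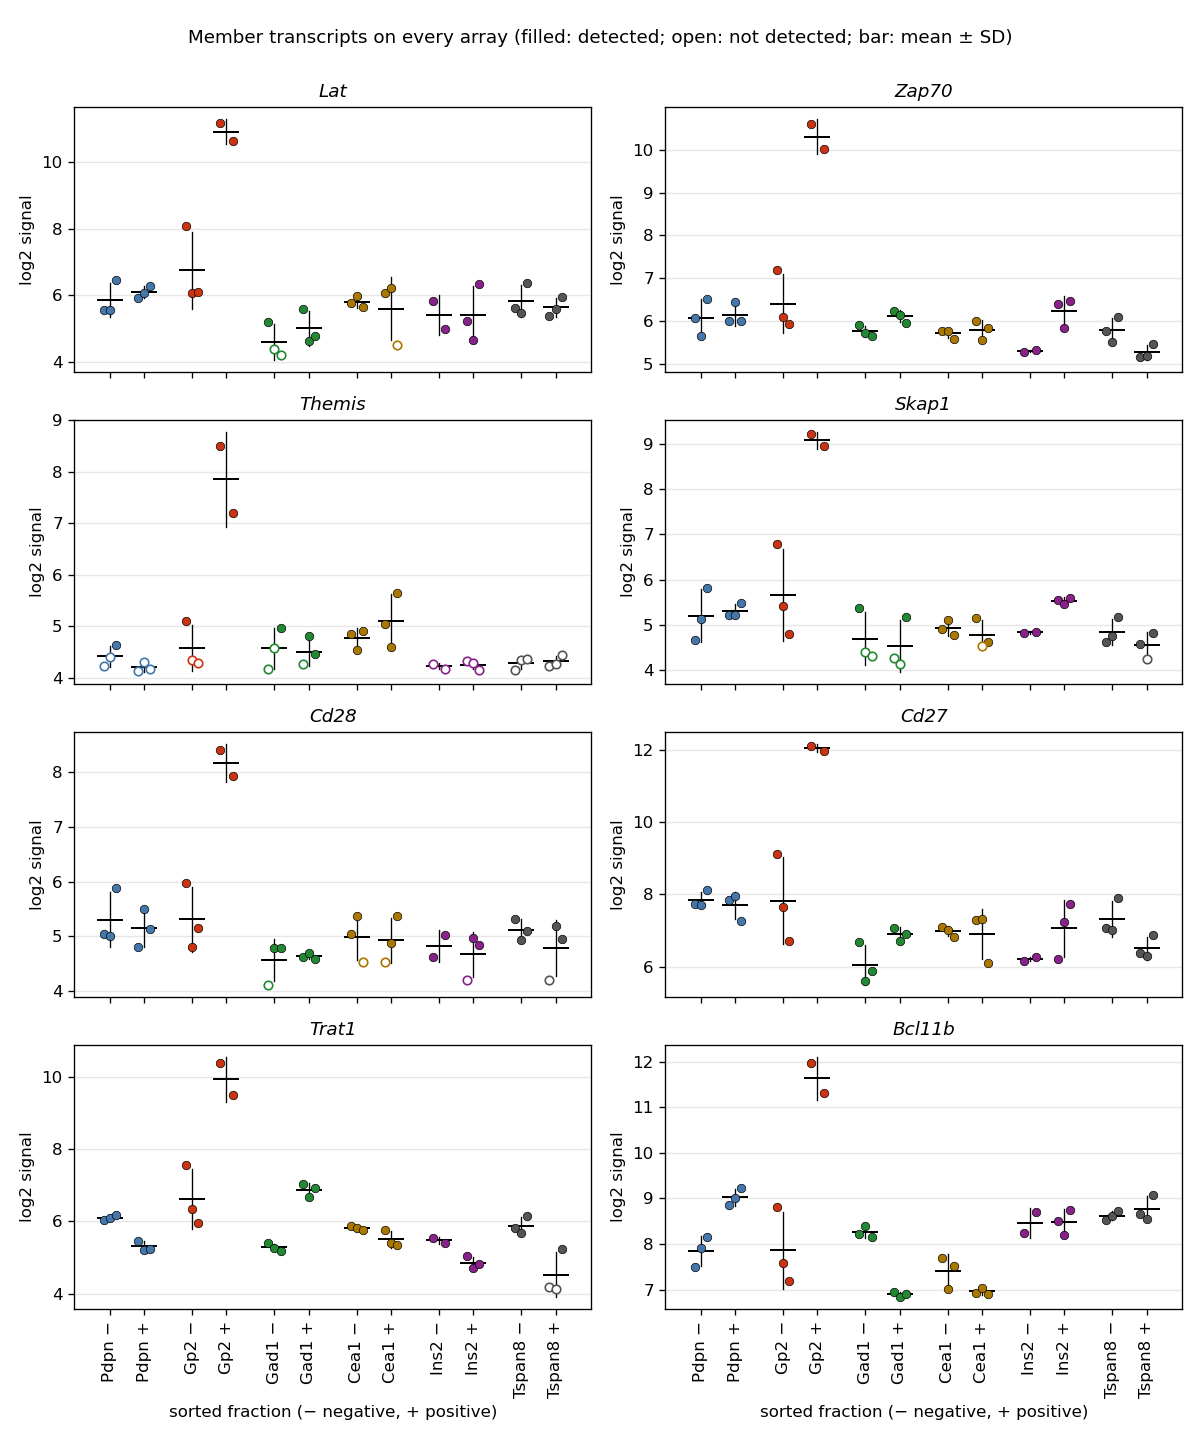
Log2 signal of the 8 measured members on each of the 34 arrays, by sorted fraction (points, filled where detected; bars, mean ± SD). For every member the 2 Gp2-positive arrays lie above all other arrays, and Gp2-negative replicate 1 is the highest of its group; Trat1 and Bcl11b part in the Pdpn and Gad1 sorts.

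Of the other 10 probes of the members, the second Lat probe had passed the filter through the Gp2-positive arrays alone and is left out of the count. Each of the other 9 was called higher in the Gp2 sort as well. The lesser of the 2 Skap1 probes (0.66, limma adjusted p = 0.0022) and the dimmest of the 3 Cd27 probes (0.63, limma adjusted p = 0.0049) gave the smallest differences, and both were detected on 7 of 34 arrays. The 3 further Bcl11b probes gave 2.81, 3.30 and 3.03. The size of the differences depended on the background subtraction. Without it they ran from 1.60 (Cd28) to 3.74 (Cd27), and in the authors' normalized values from 1.60 (Cd28) to 3.59 (Cd27). When arrays were scaled to a common median instead of quantile-normalized, they ran from 2.29 (Cd28) to 3.49 (Cd27), while the median of all genes moved to -0.23 and the share of called genes that were higher fell from 46.1% to 22.1%. All 8 were called higher under each of these settings.

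The Gp2 difference of each member was also set against its difference in the other sorts, which shared no arrays with it. For all 8 it was greater than that of each of the other 5 sorts (limma contrasts), which held for 3.68% of all genes. The 6 differences were unequal by an F test for 8 of 8 members, against 61.5% of all genes. Lat differed between sorts by 3.76 (against Gad1, SE 0.66) to 4.37 (against Cea1, SE 0.66). The narrowest margin was that of Trat1 against the Gad1 sort, at 1.72 (SE 0.42, limma adjusted p = 0.00101), and it was lost under median scaling (adjusted p = 0.133). When every probe was required to pass, leaving out the second Lat probe for the reason given above, 6 of 8 members remained. The lesser Skap1 probe did not pass against Pdpn and Tspan8, and the dimmest Cd27 probe did not pass against Gad1, Cea1 and Ins2.

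**Figure D2:**
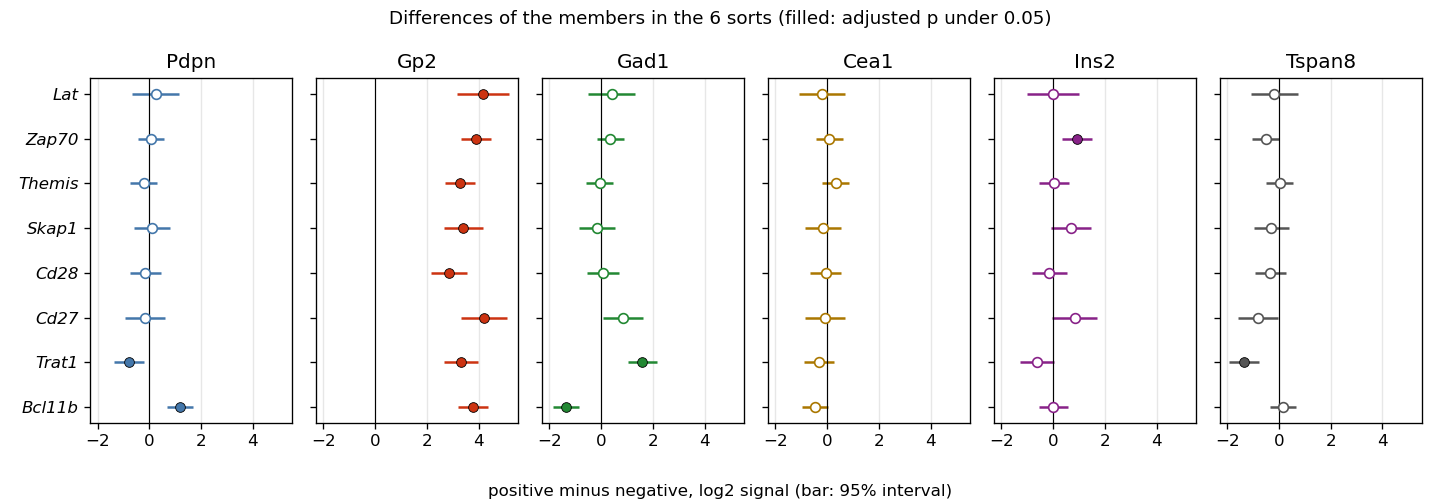
Differences of the 8 measured members between positive and negative cells of each sort, as log2 signal with 95% intervals (filled points, adjusted p under 0.05). All 8 lie between 2.85 and 4.21 in the Gp2 sort; elsewhere the called points are Trat1 and Bcl11b in Pdpn and Gad1, Zap70 in Ins2 and Trat1 in Tspan8.

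Outside the Gp2 sort the members split. Bcl11b and Trat1 accounted for 5 of the 6 called differences and went opposite ways in 2 sorts, whereas Lat, Themis, Skap1, Cd28 and Cd27 were called in none. In the Pdpn sort, where 18.2% of all genes were called higher and 19.1% lower, Bcl11b and Trat1 were called and the other 6 were not. Bcl11b read 8.85, 9.01 and 9.23 in Pdpn-positive cells and 7.50, 7.91 and 8.15 in Pdpn-negative cells, without overlap. It was 2.26-fold higher (1.18, SE 0.25, limma adjusted p = 0.000244). Its 3 dimmer probes gave 0.75 (called), 0.01 and 0.03. Trat1 went the other way, at 5.47, 5.22 and 5.24 against 6.03, 6.10 and 6.17, and was 1.73-fold lower (-0.79, SE 0.28, limma adjusted p = 0.0255). This Trat1 call was lost without background correction (-0.31, adjusted p = 0.101) and when any of Pdpn-negative replicates 2 or 3 or Pdpn-positive replicates 2 or 3 was left out (adjusted p up to 0.0761), and its other probe gave -0.60 (adjusted p = 0.0649).

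In the Gad1 sort the directions were exchanged, with 19.2% of all genes called higher and 19.2% lower. Trat1 read 7.04, 6.67 and 6.92 in Gad1-positive cells and 5.39, 5.26 and 5.19 in Gad1-negative cells, which made it 3.02-fold higher (1.59, SE 0.28, limma adjusted p = 2.06e-05). Its other probe was called in the same direction (0.93). Bcl11b read 6.94, 6.83 and 6.91 against 8.21, 8.40 and 8.16, and was 2.57-fold lower (-1.36, SE 0.25, limma adjusted p = 3.41e-05). Of its 3 dimmer probes, 2 were called lower (-1.75 and -0.93) and the dimmest gave 0.15 (adjusted p = 0.696). Cd27 read 7.09, 6.71 and 6.90 against 6.68, 5.61 and 5.90, without overlap, but its difference of 0.84 was not called (limma adjusted p = 0.0839). Its adjusted p was 0.0131 with the replicate number as a block and 0.0394 in a fit of this sort alone, which raised the count of called members from 2 to 3. Its further probes gave 0.07 and 0.098 and were not called. The brightest Zap70 probe gave 0.35 and was not called, whereas the dimmest of its 3 probes was called lower (-0.62, limma adjusted p = 0.0152).

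Across all 34 arrays Trat1 and Bcl11b correlated at 0.46 (Pearson), and across the 29 arrays outside the Gp2 sort at -0.57. Over the 28 pairs of members, the median correlation was 0.82 on all arrays and 0.15 without the Gp2 sort, where 7 pairs were negative. The lowest of these was Themis with Bcl11b, at -0.59, although Themis was detected on only 13 of the 34 arrays. Arrays of a group and of a sort share their source, so these values are descriptions.

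**Figure D3:**
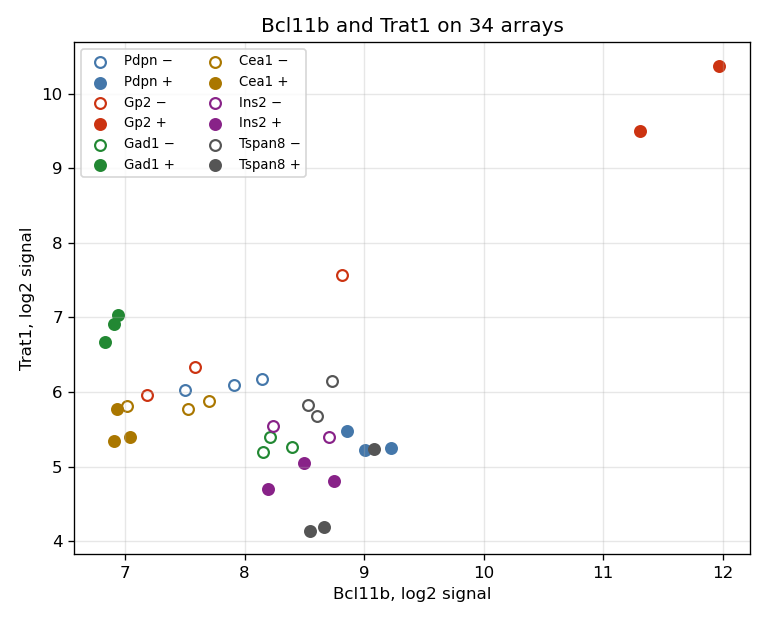
Log2 signal of Trat1 against that of Bcl11b on the 34 arrays, coloured by sort, with positive fractions filled and negative fractions open. The 2 Gp2-positive arrays are high for both genes. The 3 Gad1-positive arrays combine Bcl11b values of 6.83 to 6.94 with Trat1 values of 6.67 to 7.04. Pdpn-positive arrays lie at high Bcl11b and low Trat1, and so do Tspan8-positive and Ins2-positive arrays, whose mean Trat1 is lower still.

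In the Ins2 sort Zap70 was the member called, with 16.8% of all genes called higher and 17.7% lower. It read 6.41, 5.85 and 6.48 in Ins2-positive cells and 5.29 and 5.32 in Ins2-negative cells, and was 1.92-fold higher (0.94, SE 0.28, limma adjusted p = 0.00873). The call was lost under median scaling (0.41, adjusted p = 0.332), in the authors' values with all 3 negative arrays (0.27, adjusted p = 0.0803), in a fit of this sort alone (adjusted p = 0.0605) and without Ins2-negative replicate 1 (adjusted p = 0.0559). Median scaling also moved the median of all genes to -0.25 and the share of called genes that were higher from 48.6% to 16.9%. The other Zap70 probes gave 1.13 (called) and -0.074. Cd27 was called here when Ins2-positive replicate 1 was left out (1.27, adjusted p = 0.0249), against 0.84 with it, and its further probes gave 0.59 and 0.27, not called.

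In the Tspan8 sort, where 19.1% of all genes were called higher and 23.9% lower, Trat1 read 4.19, 4.14 and 5.24 in Tspan8-positive cells and 5.82, 5.68 and 6.14 in Tspan8-negative cells. It was 2.56-fold lower (-1.36, SE 0.28, limma adjusted p = 0.000137), it was detected on 1 of the 3 positive arrays, and its other probe gave -0.53 (adjusted p = 0.0986). Zap70 (-0.52) and Cd27 (-0.82) were lower on all positive arrays without overlap (30.5% of all genes were so) but missed the threshold, at limma adjusted p = 0.101 and 0.0882. Both were called with array weights, with the replicate block and in a fit of this sort alone, so that the count of called members went from 1 to 3. Neither was called without background correction, under median scaling or with the other detection filters, and in the authors' values Cd27 was. The further Zap70 probes gave -0.80 (limma adjusted p = 0.0288) and -0.13 (adjusted p = 0.708). The further Cd27 probes gave 0.16, in the opposite direction (adjusted p = 0.71), and -0.038 (adjusted p = 0.906). In the Cea1 sort, with 13.4% of all genes called higher and 15.6% lower, 0 of 8 members were called, and none of the 8 had an unadjusted p under 0.05. The differences ran from -0.45 (Bcl11b) to 0.33 (Themis), and the 95% interval of Lat reached from -1.10 to 0.70. With the replicate block Bcl11b was called lower there (adjusted p = 0.0203), and the dimmest Cd27 probe gave 0.54 (limma adjusted p = 0.00976). That probe had passed the filter through the Cea1-positive arrays alone, so this value is given as a description.

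The order of the 12 groups was headed by Gp2-positive cells for every member, without overlap with the next group. The gap to that group ran from 2.61 (Bcl11b, next Pdpn-positive) to 4.18 (Cd27, next Pdpn-negative). Gp2-negative cells came next for Lat, Zap70, Skap1 and Cd28, Gad1-positive cells for Trat1 and Cea1-positive cells for Themis. Below the top, nearly all neighbouring groups overlapped. The exceptions were Zap70 between Cea1-negative and Ins2-negative cells, Cd27 between Tspan8-positive and Ins2-negative cells, and Trat1 below Cea1-negative and below Gad1-negative cells. These levels compare sorts that also differed in the antibody or reporter used, which cannot be told apart from the antigen.

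At the low end, Lat was lowest in Gad1-negative cells (4.60 ± 0.53, SD, n = 3) and Zap70 in Tspan8-positive cells (5.28 ± 0.17, n = 3). Trat1 was also lowest in Tspan8-positive cells (4.52 ± 0.62, n = 3), whereas Bcl11b was lowest in Gad1-positive cells (6.89 ± 0.05, n = 3), where Trat1 stood next to the top. Cd27 was lowest in Gad1-negative cells (6.06 ± 0.55, n = 3). Zap70, Cd27 and Bcl11b were detected on 34 of 34 arrays and Themis on 13. Themis was detected on no array of the Pdpn-positive, Ins2-positive, Ins2-negative, Tspan8-positive and Tspan8-negative groups, so no fold is given for it in the Ins2 and Tspan8 sorts. Its values on the 6 Cea1 arrays, all detected, lay between 4.54 and 5.65.

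Beyond the members, genes of the T cell receptor complex and its coreceptors rose together in Gp2-positive cells. All 9 tested were called higher, beside 18.0% of all genes. Their median was 3.11, and the count was 9 without Gp2-negative replicate 1. Cd3d, a signalling chain of the receptor, rose 18.0-fold (4.17, SE 0.45), Cd6, a receptor that modulates T cell activation, 13.6-fold (3.76, SE 0.24), the adhesion receptor Cd2 8.63-fold and the coreceptor Cd4 7.39-fold. Of 6 kinases of the pathway, 3 were higher and 1 lower, beside 18.0% and 21.0% of all genes. The lower count lay near that share, and nothing is read from it. Prkcq, the protein kinase C isoform downstream of CD28, rose 11.6-fold, Map4k1 5.14-fold and Csk, which restrains Src family kinases, 1.58-fold, while Tec fell by 0.91 on the log2 scale.

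In this sort 18.0% of all genes were called higher and 21.0% lower. Among adaptors, exchange factors and effectors, 10 of 17 were higher and 3 lower, with a median of 1.46. Sit1, a transmembrane adaptor, rose 14.0-fold, the Ras exchange factor Rasgrp1 6.37-fold, Lcp2 (SLP-76), which joins LAT-bound complexes, 5.74-fold and Grap2 2.75-fold. The lower genes were Bcl10 (-0.93), Malt1 (-0.86) and Nck1 (-0.59). Their count lay near the share of all genes, and nothing is read from it. Negative regulators were higher for 7 of 10 and lower for 0, with a median of 1.68, leaving out Ubash3a, which had passed the filter through the Gp2-positive arrays alone. Of these, the adaptor Dok2 rose 10.1-fold, Sla2 8.42-fold, and the diacylglycerol kinases Dgka and Dgkz 6.18-fold and 3.64-fold. T lineage transcription factors were higher for 8 of 11 and lower for 0, with a median of 1.18. Ets1 rose 11.7-fold, the chromatin organizer Satb1 9.40-fold, Lef1 7.65-fold and Myb 4.49-fold.

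**Figure D4:**
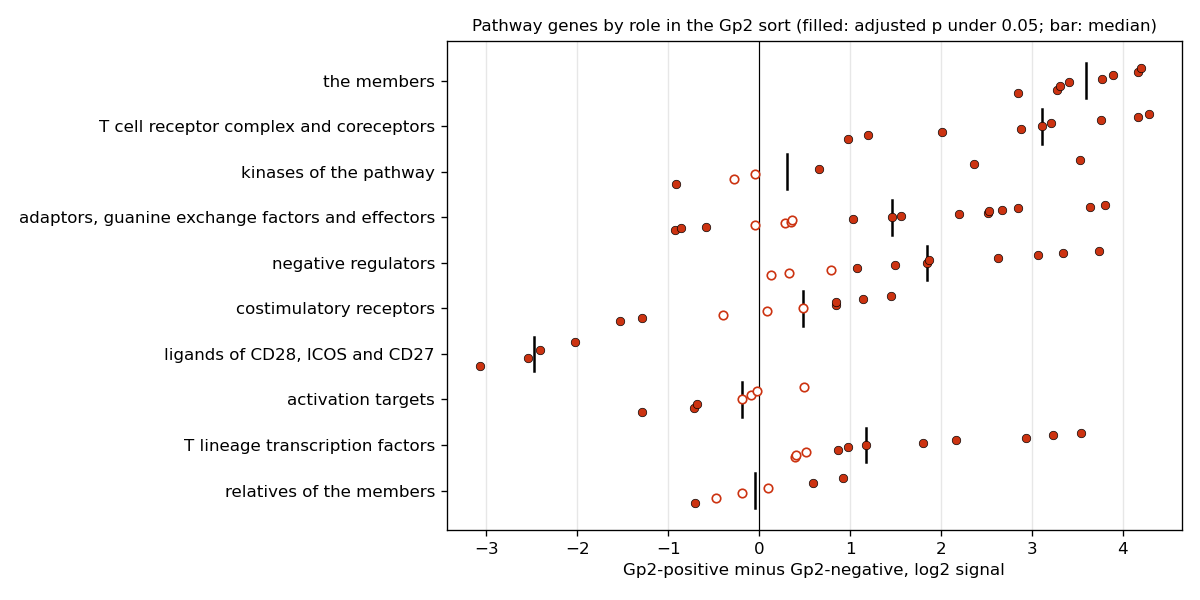
Differences between Gp2-positive and Gp2-negative cells, as log2 signal, of the members and of pathway genes grouped by role (filled points, adjusted p under 0.05; bars, medians; Ubash3a is drawn among the negative regulators). The members, the receptor complex, the negative regulators and the T lineage transcription factors lie mostly above 0, whereas the 4 ligands lie between -3.07 and -2.02.

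Genes that act later or on the other side of the contact did not all rise as the members did. Over all genes in this sort, 18.0% were called higher and 21.0% lower. Activation targets, which receptor signals induce in T cells, were higher for 0 of 7 and lower for 3, namely Il2 (-1.28), Egr3 (-0.71) and Egr2 (-0.68). Of 9 further costimulatory receptors, 4 were higher and 2 lower. Tnfrsf18 rose 2.74-fold and Pdcd1 1.80-fold, while Tnfrsf4 fell by 1.29 and Tnfrsf9 by 1.53 on the log2 scale. The relatives of the members, which serve other cell types or act beside them, gave 2 higher and 1 lower of 6. That lower count and the 2 of 9 among the costimulatory receptors lay near the share of all genes, and nothing is read from them. Fgr (0.92) and Syk (0.59), kinases of the Src and ZAP-70 families, were called higher and Blk (-0.70) lower, whereas Lat2 (-0.47), Themis2 (-0.18) and Skap2 (0.10) were not called.

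The ligands of the costimulatory receptors moved against the receptors in the Gp2 sort, with 4 of 4 called lower beside 21.0% of all genes. Cd70, the ligand of CD27, read 6.50 and 7.68 in Gp2-positive cells and 10.12, 10.16 and 10.20 in Gp2-negative cells. It was 8.40-fold lower (-3.07, SE 0.21, limma adjusted p = 4.02e-14), without overlap. Cd80 and Cd86, the ligands of CD28, were 5.83-fold and 5.32-fold lower, and Icosl, the ligand of the related receptor ICOS, 4.07-fold lower. Cd80 read 7.74 and 8.08 against 10.32, 10.38 and 10.66, so that its groups lay more than 2 log2 units apart. Cd86 read 7.02 and 7.23 against 10.17, 9.40 and 9.04, and here too Gp2-negative replicate 1 was the highest array. Without that array all 4 ligands were still called lower, and their median moved from -2.48 to -2.35.

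In the other sorts the ligands changed where Cd28 and Cd27 were not called. In the Tspan8 sort all 4 were called lower, beside 23.9% of all genes. Cd70 was lower by 6.69-fold, Cd86 by 4.06-fold, Icosl by 3.56-fold and Cd80 by 3.01-fold. In the Pdpn sort Cd70 (4.79-fold), Cd80 (2.72-fold) and Icosl (2.30-fold) were lower, beside 19.1% of all genes. Cd86 differed there by 0.05. The Cea1 sort, with 15.6% of all genes called lower, had smaller decreases of Icosl (2.11-fold), Cd70 (1.97-fold) and Cd80 (1.75-fold). Cd86 rose in the reporter sorts, 3.45-fold with Gad1 and 2.34-fold with Ins2, while Icosl was lower in both, by 1.97-fold and 1.72-fold. Of all genes, 19.2% were called higher and 19.2% lower with Gad1, and 16.8% and 17.7% with Ins2. Icosl was the ligand called lower in all 6 sorts.

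**Figure D5:**
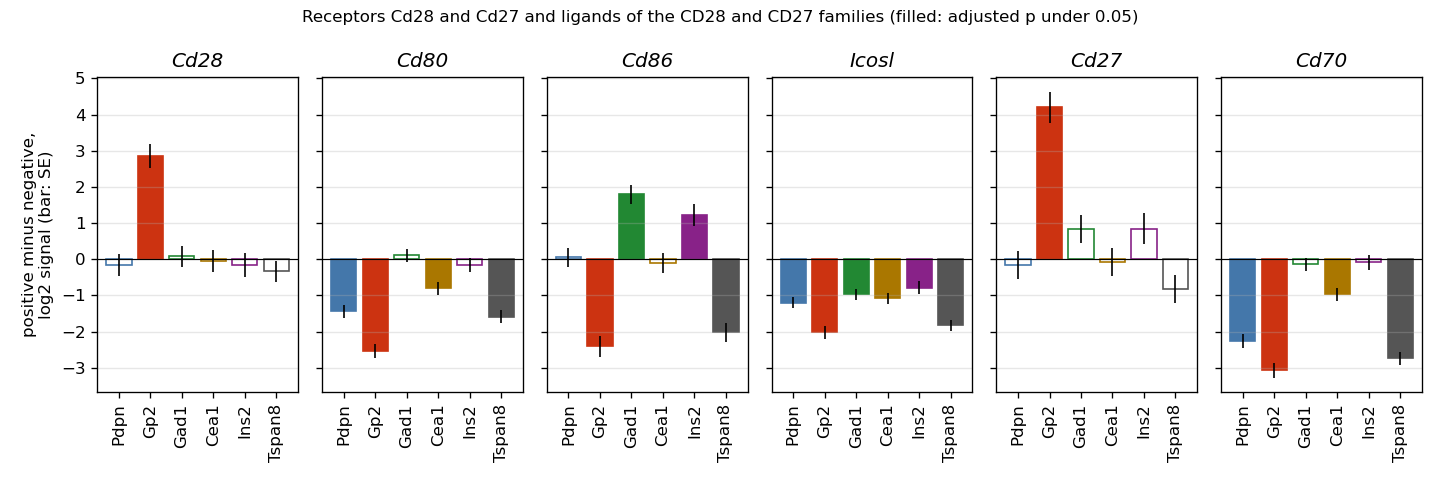
Differences between positive and negative cells, as log2 signal with SE, of the receptor genes Cd28 and Cd27 and of the ligand genes Cd80, Cd86, Icosl and Cd70 in the 6 sorts (filled bars, adjusted p under 0.05). In the Gp2 sort the receptors lie at 2.85 and 4.21 and the ligands between -3.07 and -2.02; Cd86 is higher in the Gad1 and Ins2 sorts.

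Some genes of the pathway rose in sorts in which at most 1 of the 8 members was called higher, namely Trat1 with Gad1 and Zap70 with Ins2. Vav1, a guanine exchange factor of the pathway, was 42.4-fold higher in Cea1-positive cells (5.41, SE 0.21, limma adjusted p = 2.99e-20), 9.44-fold in Tspan8-positive, 4.80-fold in Gad1-positive and 4.13-fold in Ins2-positive cells. The adaptor Fyb rose with it, by 7.42-fold in the Cea1 sort and 2.93-fold in both the Gad1 and the Tspan8 sort. Ptpn6, a phosphatase that dampens receptor signals in blood cells, rose 5.77-fold in the Cea1 sort, 2.61-fold with Gad1, 2.52-fold with Tspan8 and 2.24-fold with Ins2. Skap2, the relative of Skap1, rose 3.15-fold with Cea1 and 2.30-fold with Tspan8, where Skap1 itself gave -0.15 and -0.30. Counts of higher and lower calls follow for 17 adaptors and effectors, 11 negative regulators and 9 receptor complex genes. With Gad1 they were 4 and 2, 1 and 1, and 2 and 2, beside 19.2% and 19.2% of all genes. With Cea1 they were 2 and 1, 2 and 1, and 0 and 0, beside 13.4% and 15.6%. With Ins2 they were 4 and 1, 3 and 0, and 2 and 1, beside 16.8% and 17.7%. With Tspan8 they were 4 and 3, 2 and 3, and 0 and 3, beside 19.1% and 23.9%. The genes named here do not stand for their lists. Cd6 fell with Bcl11b in Gad1-positive cells (-1.38) and with Trat1 in Tspan8-positive cells (-1.51).

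Egr3, an early target of receptor signals that many cells can induce, rose in the Tspan8 (6.45-fold), Cea1 (3.61-fold), Gad1 (2.67-fold) and Ins2 (2.02-fold) sorts. The 7 activation targets did not rise together. With Tspan8, 3 were higher and 3 lower, beside 19.1% and 23.9% of all genes. With Cea1, 3 were higher and 1 lower (13.4% and 15.6% of all genes), and likewise with Gad1 (19.2% and 19.2%). With Ins2, 2 were higher and 1 lower, beside 16.8% and 17.7%. Of the 9 further costimulatory receptors, 4 were lower in Pdpn-positive cells (19.1% of all genes were), 4 in Tspan8-positive cells (23.9% of all genes) and 3 in Cea1-positive cells (15.6% of all genes). In the Pdpn and Tspan8 sorts Tnfrsf9 was 3.14-fold and 3.97-fold lower and Tnfrsf4 2.84-fold and 2.34-fold lower. Among T lineage factors, Runx1 rose 5.12-fold with Tspan8, 3.73-fold with Cea1 and 3.32-fold with Pdpn, and Ikzf1 was 3.28-fold lower with Tspan8 and 3.15-fold lower with Gad1. Bcl11a, the paralogue of Bcl11b, was 5.71-fold higher in Pdpn-positive cells, and was called lower in Gad1-positive cells (-0.58), as Bcl11b was.

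Markers of other cells were read beside the Gp2 result. Of the 11 thymocyte markers tested, Rag2 had passed the filter through the Gp2-positive arrays alone. The other 10 were all called higher, with and without Gp2-negative replicate 1, with a median of 3.47, beside 18.0% of all genes, and 6 of the 10 also belong to the receptor complex list. Rag1, which cuts receptor genes for rearrangement, rose 30.3-fold and Thy1 8.33-fold. The summed signal of all 11, Rag2 included, was 31992 and 23885 on the Gp2-positive arrays. It was 1912 to 5872 on the Gp2-negative arrays and 1131 to 3264 on the arrays of the other sorts. Since Rag2 passed through the group where it is high, these sums are given as a description. None of the 11 was undetected in Gp2-positive cells, and Rag2 was detected on no array of any other group. The part of thymocyte transcripts in the members' differences was not tested.

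Cortical thymic epithelial markers moved the same way, with 8 of 9 higher and 0 lower. Prss16, a thymus-specific serine protease, rose 66.6-fold, the chemokine Cxcl12 39.4-fold, the protease Ctsl 19.4-fold and the thymoproteasome subunit Psmb11 12.3-fold. Medullary markers were lower for 5 of 9 and higher for 0, with Aire 4.80-fold and Fezf2 3.80-fold lower. Cd80, counted above among the ligands, is also 1 of these 5. Proliferation genes were higher for 4 of 7 (5 without Gp2-negative replicate 1), erythroid markers lower for 3 of 3 and fibroblast markers lower for 3 of 5. Pan-leukocyte genes were higher for 2 of 5 with 1 lower, and 3 were higher without Gp2-negative replicate 1, when their median moved from 0.59 to 1.45. Markers of dendritic cells and macrophages were lower for 4 of 9 with 1 higher, leaving out Clec9a, which had passed the filter through the Gp2-negative arrays alone. NK and innate lymphoid markers, with 1 of 5 higher and 1 lower, and B cell markers, with 1 of 3 lower, lay near the shares of all genes in this sort, 18.0% higher and 21.0% lower, and nothing is read from them. The part of these other lists in the members' differences was not tested either.

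The genes whose pattern was most like that of the members were found by Pearson correlation over the 34 arrays with the mean of the 8 scaled members. The 10 highest were Rag1 (0.97), Tcrb-V8.3, Ppp1r1c, Trbv1, Fam78a, Dntt, Satb1, Aqp11, Cd3d and Cd96 (0.95). Without the 5 Gp2 arrays the correlation of Rag1 was 0.64, that of Trbv1 0.22 and that of Cd3d 0.81. For each member alone, the gene most like it was Satb1 for Lat (0.94), Ppp1r1c for Zap70 (0.95), A930013B10Rik for Themis (0.93), Fam78a for Skap1 (0.94), Rag1 for Cd28 (0.92), Cd3e for Cd27 (0.96), Gmfg for Trat1 (0.95) and Hdhd5 for Bcl11b (0.92). Outside the Gp2 sort Cd27 and Cd3e kept a correlation of 0.84, Trat1 and Gmfg 0.81 and Bcl11b and Hdhd5 0.80, while Zap70 and Ppp1r1c had 0.33. The points share arrays, groups and sorts, so these values rank likeness and are not tests.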

How the data were processed

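Arrays of sorted mouse mTECs were read from the deposited tables. Per the file headers, the unnormalized table holds a mean bead intensity for each probe and a detection p-value beside it. The lowest intensity per array was 65.2 to 84, which means that the authors had not subtracted background. The authors' normalized intensity table is on a linear scale; its normalization method is not given in the sources used here. The intensity column labelled Ins2-negative replicate 2 held detection p-values of another array, so 34 of 35 arrays were fitted. The 2 tables name probes differently and were linked by their values over arrays. All 46089 probes were linked, and on the array left out, its authors' values ranked against its detection p-values, with reversed sign, at a Spearman correlation of 0.989.

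Signals were processed with neqc (negative controls inferred from detection p-values, offset 16) of limma 3.58.1 in R 4.3.3, giving 34083 kept probes and 18090 genes, each represented by the brightest kept probe. Python 3.11.15 and NumPy 2.4.6 served for the link. Symbols come from the platform annotation, updated through GRCm38.p6 names. Group means were fitted with lmFit and eBayes with trend (22 residual degrees of freedom), with Benjamini-Hochberg adjustment over all genes. The fit was tested on simulated data. Alternatives were no background correction, median scaling, the authors' values, other detection filters, array weights, each sort alone, the replicate block, every probe and each array left out.

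The members, gene lists and tests were chosen with earlier results of these data known. Named genes are the members with every probe, all ligands and relatives of the members, up to 4 called genes per list with the smallest adjusted p in a sort, and the most similar genes. Genes named again in another sort were chosen after their values were seen. Positive and negative arrays of the same number were checked for pairing. The correlations of their deviations from group means were -0.0015 to 0.229 over 16 pairs. All 3 Pdpn pairs were over 0.1 (0.199, 0.156 and 0.205), and so were both Gp2 pairs (0.229 and 0.106). No other sort had every pair over 0.1. The labels do not state that equal numbers pair samples, and the main fit treated arrays as unpaired.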

Additional observations from a re-analysis of the deposited data

Results flagged for a closer look

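For all 8 measured members the size of the difference between positive and negative cells was itself unequal among the 6 sorts, by limma's F test adjusted over all genes. The adjusted p was 1.8e-12 for Bcl11b, 3.4e-11 for Trat1, 6.8e-11 for Zap70 and 4.3e-09 for Themis. It was 6.2e-08 for Cd27, 5.2e-07 for Skap1, 1.2e-06 for Cd28 and 4.1e-06 for Lat. The same test called 61.5% of all genes. For Bcl11b the differences ran from -1.36 (Gad1) to 3.78 (Gp2), and for Trat1 from -1.36 (Tspan8) to 3.32 (Gp2). For Lat, Themis, Skap1, Cd28 and Cd27 the Gp2 sort was the 1 sort in which the gene was called.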

How the results depend on the processing

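The count of called members in the Gp2 sort was 8 under every alternative run, and the F test called 8 under each. The Gp2 difference exceeded that of each other sort for 8 members, or 7 under median scaling and 6 with every kept probe. The second Lat probe, which passed the filter through the Gp2-positive arrays alone, is left out of the Gp2 counts with every probe. The Pdpn count of 2 became 1 without background correction and 0 with every kept probe required. The Gad1 count of 2 became 1 with every probe and 3 with the replicate block or a fit of the sort alone. The Cea1 count of 0 became 1 with the replicate block. The Ins2 count of 1 became 0 under median scaling, in the authors' values, in a fit of the sort alone and with every probe. The Tspan8 count of 1 became 2 in the authors' values, 3 with array weights, the replicate block or a fit of the sort alone, and 0 with every probe. Leaving out 1 array at a time gave 1 to 2 (Pdpn), 8 to 8 (Gp2), 2 to 3 (Gad1), 0 to 0 (Cea1), 0 to 2 (Ins2) and 1 to 1 (Tspan8). The detection filters changed no member's call. Over 60 pairs of a dimmer probe and a sort, the sign was opposite to that of the brightest probe in 15, none in the Gp2 sort. In 11 of these neither probe was called. In the other 4, from 3 probes, 1 of the 2 was called, and the dimmer probe gave -0.62 (Zap70) and 0.15 (Bcl11b) with Gad1, 0.54 (Cd27) with Cea1 and -0.074 (Zap70) with Ins2. The cause was not tested. The replicate block changed no Pdpn or Gp2 call of a member, and the calls it did change stand beside the results. It lowered the Gp2 difference of all 8 members, which then ran from 2.77 (Cd28) to 3.83 (Lat). With the block, Cd27 gave 3.65 in the Gp2 sort, a 12.6-fold difference. In the Gp2 sort, leaving out Gp2-negative replicate 1, chosen after seeing the data, moved the adaptor counts from 3 lower to 2, negative regulators (Ubash3a included) and T lineage factors from 8 higher to 9 each, activation targets from 3 lower to 2, pan-leukocyte genes from 2 higher to 3 and proliferation genes from 4 higher to 5. A slide block was not run, since the files give no slides. Limits are the 2 arrays in the Gp2-positive and Ins2-negative groups and signals near background, as for Themis.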
